A study of Mus musculus with 6 samples.

Results

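Stellate cell and extracellular matrix genes were examined in regenerating mouse liver with and without Socs3 in hepatocytes. The 32 genes were taken by symbol from a list of quiescent stellate cell markers, markers of activated stellate cells and pericytes, and matrix genes. Of these, 31 had a probe set naming a single gene among the 18193 genes so covered. A brightness filter (a log2 value above 4 on 3 or more of the 6 arrays) was passed by 23 of them and by 8554 genes in all. Each gene was read from its brightest such probe set. No measured value entered the choice of genes, although earlier results of these data were known when they were listed.

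Total RNA from whole liver was hybridized to Affymetrix whole-genome mouse expression arrays, and both groups were collected 18 hours after partial hepatectomy. Cre plus livers (n = 3 arrays, A, B and C) came from Socs3 fl/fl mice with an Alb-Cre transgene, in which the albumin promoter drives Cre and so deletes Socs3 in hepatocytes. Cre minus livers (n = 3, A, B and C) came from Socs3 fl/fl littermates without Cre. All mice were C57BL/6, carried the floxed allele and had surgery; ages are not given in the sources used here, and no array without surgery was analysed here. The labels do not say that each array is a separate mouse, so the p-values measure the spread between these arrays, which may be partly technical.

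Hepatic stellate cells lie between hepatocytes and the sinusoidal endothelium. At rest they store retinyl esters, and when activated they proliferate under platelet-derived growth factor (PDGF), acquire smooth muscle actin and, under transforming growth factor beta (TGF-beta), deposit collagen. Socs3 is a feedback inhibitor of IL-6 family signalling through STAT3, and in these mice stellate cells keep it, since the albumin promoter is a hepatocyte promoter. In whole-liver RNA, fewer stellate cells and less RNA per stellate cell cannot be told apart.

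Socs3 was lower in each Cre plus array than in each Cre minus array, at 7.44, 6.69 and 7.47 against 9.09, 9.30 and 9.24 on its brightest probe set. Here and throughout, values by array are log2 values in the order A, B, C within each group. Over the genes tested, pairs of Cre plus arrays correlated at 0.987 to 0.990, pairs of Cre minus arrays at 0.995 and mixed pairs at 0.982 to 0.993. Cre plus B correlated more closely with the Cre minus arrays (0.991 to 0.993) than with Cre plus A (0.989) or Cre plus C (0.987), although its Socs3 was the lowest of the 6. Hepatocyte markers were present in all 6 livers, with Alb between 15.23 and 15.34. The stellate markers Lrat, Reln, Des, Pdgfrb, Hand2, Colec11 and Rgs5 passed the filter and Ngfr did not.

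No stellate or matrix gene differed between the groups past the adjusted test, and most fold changes were small. In limma's test across all genes, 0 of the 23 genes passed an adjusted p under 0.05, where 0.0234% of all genes tested did. Those that passed were 2 genes, both higher in Cre plus. Socs3 itself, with a log2 fold change of -2.01 on its brightest probe set, did not pass. Since the deleted gene missed this threshold, 0 of 23 says little on its own. At an unadjusted p under 0.05, 3 of the 23 were higher in Cre plus (Rgs5, Col4a1 and Pdgfra) and 0 were lower, against 6.62% of all genes higher and 8.21% lower. The same 3 genes were the ones whose Cre plus values all lay above all Cre minus values, which is 13.0% of the 23, and in 0 of them did they all lie below. Over all genes these shares were 9.21% and 11.9%. In value 12 of the 23 were higher and 11 lower, with a median log2 fold change of 0.02, beside -0.01 over all genes. The median absolute log2 fold change was 0.12, beside 0.11 over all genes, so these genes were not less changed than others. Their median SE was 0.13, beside 0.10 over all genes.

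The arrays limited how small a difference could be excluded. The 95% interval of the fold change lay within 1.5-fold in either direction for 17 of the 23 genes. It lay within 2-fold for 22, Col4a1 being the exception. The 17 include Des, Col1a1, Timp2 and Timp3, with values between 3.98 and 4.97, near the filter, where fold changes are compressed. For these genes a narrow interval does not exclude a larger difference in RNA. The count at an unadjusted p under 0.05 depended on single arrays. With Cre plus A or Cre plus C left out it was 1 (Rgs5), and with Cre plus B left out it was 4 (Rgs5, Col4a1, Pdgfra and the proteoglycan gene Dcn). It was 2 without Cre minus A (Rgs5 and Acta2), without Cre minus B (Rgs5 and Col4a1) or without Cre minus C (Rgs5 and Pdgfra). Rgs5, Col4a1 and Pdgfra had groups without overlap whichever array was left out. This was fixed in advance, since groups apart with all 6 arrays stay apart when 1 is left out. They were joined by Col4a2, Dcn and Des when Cre plus B was left out, and by Col1a1, Tagln and Timp3 when Cre plus C was. Without Cre minus C they were joined by Col4a2, Hand2 and Vim, and the count was 6 in each case. Groups of fewer arrays overlap less often by construction. The shares over all genes given above are for all 6 arrays, so the counts with an array left out cannot be read against them.

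**Figure D1:**
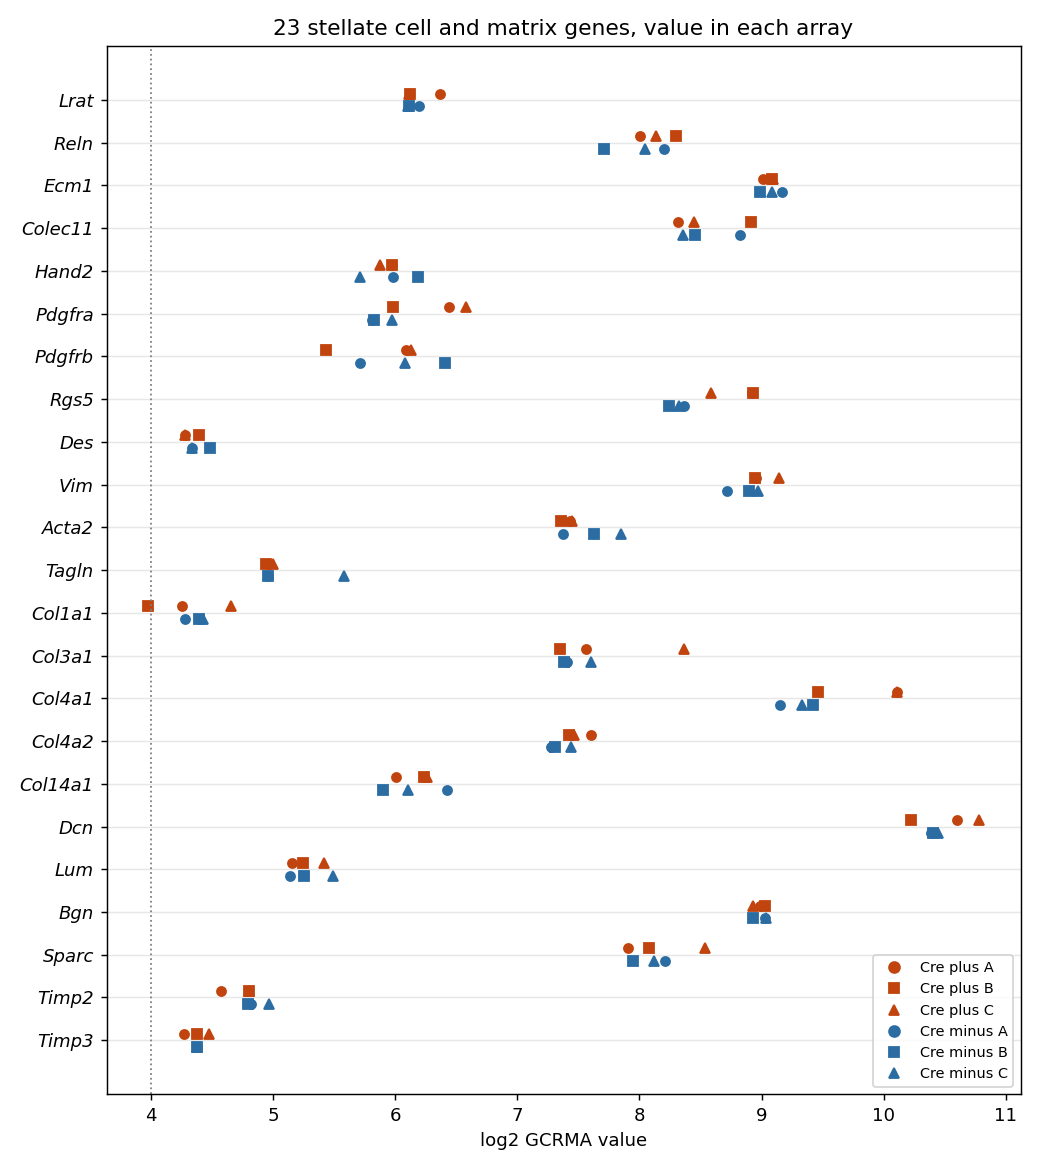
Log2 GCRMA value (horizontal axis) of the 23 genes tested in each array, Cre plus in orange above Cre minus in blue, with a marker shape for arrays A, B and C and a dotted line at the filter value of 4. The groups separate for Pdgfra, Rgs5 and Col4a1 and overlap for the other genes.

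**Figure D2:**
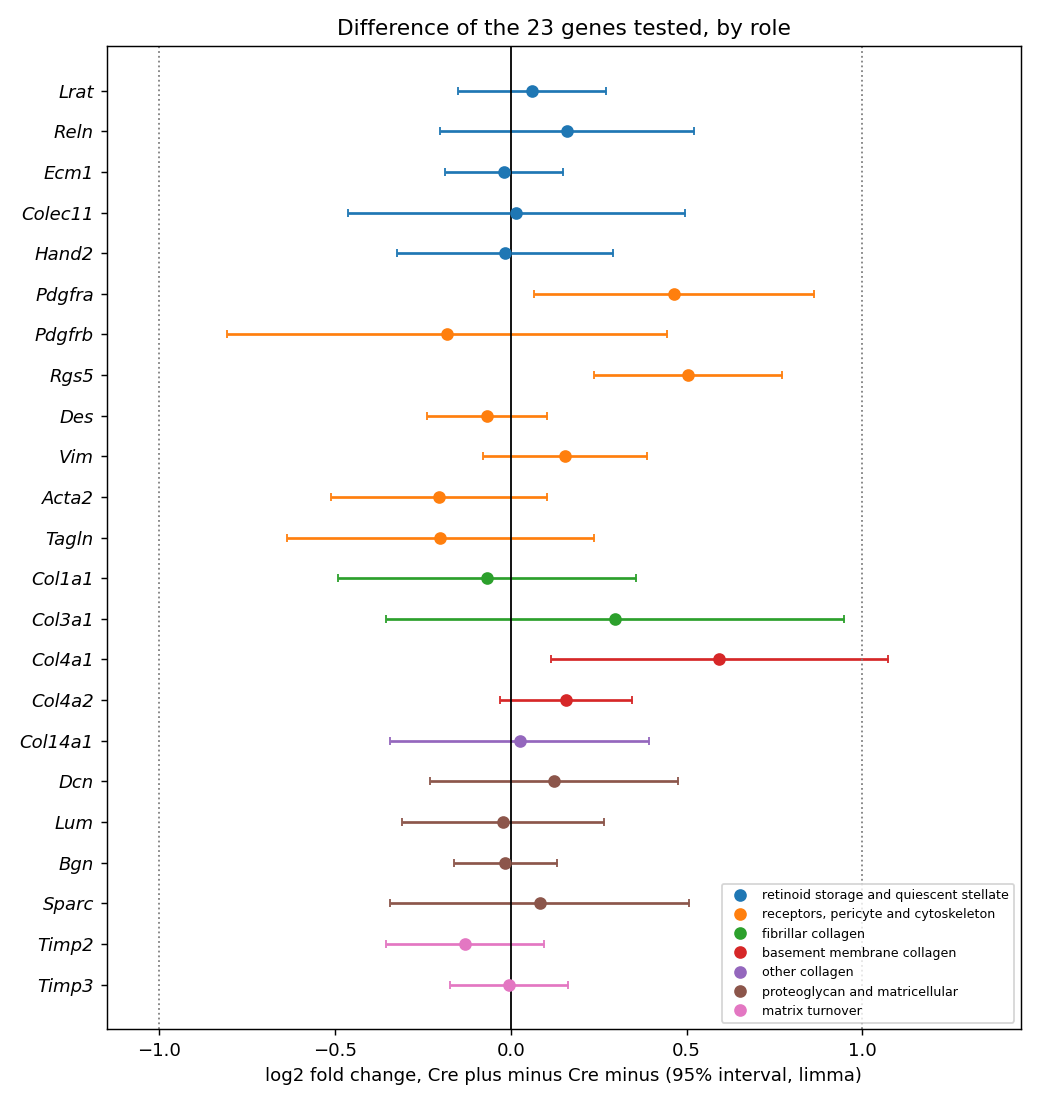
Log2 fold change of Cre plus minus Cre minus with its 95% interval from limma for the 23 genes, coloured by role, with dotted lines at a 2-fold difference. The intervals of Pdgfra, Rgs5 and Col4a1 lie above 0, and that of Col4a1 reaches past 2-fold.

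Rgs5, Pdgfra and Col4a1 are described first by sequence, because they were the genes whose groups did not overlap. RefSeq gives a promoter window for 22 of the 32 genes (GRCm38.p6), and the 250 bases before each start were searched on both strands for short motifs. The TATA box (TATAAA) was found in 3 of the 22 genes, Col3a1, Ecm1 and Vim, and in 12.4% of all 32851 windows of this length. The CCAAT box was found in 8 of the genes and 33.8% of all windows. The GC box, searched as GGGCGG, was found in 13 of the genes and 32.7% of all windows. The core of STAT binding sites, searched as TTCNNNGAA, was found in 1 gene, Colec11, and 7.02% of all windows. A gene was counted if any of its windows matched, whereas the percentages are of single windows, so these measures differ. A match describes the letters and shows no binding.

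The windows of Rgs5 and Pdgfra are printed whole, on the + strand, and Col4a1 is given as 30 bases on the - strand around its CCAAT match. Capitals mark matches to the searched letters, here CCAAT on the opposite strand. In Rgs5 (chr1:169655251-169655500) the match begins 67 bases before the start, and in Col4a1 (chr8:11312954-11312983) 145 bases before it, while the Pdgfra window (chr5:75152001-75152250) held none of the searched letters.
Rgs5: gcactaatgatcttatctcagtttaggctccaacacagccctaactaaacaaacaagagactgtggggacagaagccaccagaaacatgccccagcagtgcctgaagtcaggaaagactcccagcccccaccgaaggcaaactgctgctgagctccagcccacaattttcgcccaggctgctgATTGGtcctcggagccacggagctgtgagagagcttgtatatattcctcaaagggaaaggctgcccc
Pdgfra: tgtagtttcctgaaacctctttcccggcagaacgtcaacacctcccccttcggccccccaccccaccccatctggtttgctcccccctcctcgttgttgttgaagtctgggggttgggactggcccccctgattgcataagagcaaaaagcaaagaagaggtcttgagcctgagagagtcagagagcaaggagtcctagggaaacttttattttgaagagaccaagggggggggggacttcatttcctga
Col4a1: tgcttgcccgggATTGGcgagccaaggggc

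Among the markers of quiescent, retinoid-storing stellate cells, 5 of 6 were measured above the filter and none separated the groups. Lrat, the enzyme that esterifies retinol for storage, had log2 values of 6.36, 6.12 and 6.11 in Cre plus, against 6.19, 6.12 and 6.11 in Cre minus. Cre plus A was the highest array and the other arrays lay close together in both groups. Lrat had a log2 fold change of 0.06 ± 0.09 (SE), with a 95% interval of -0.15 to 0.27 and limma's adjusted p = 0.773. Reln, a secreted glycoprotein that marks stellate cells in liver, averaged 8.15 ± 0.15 in Cre plus and 7.99 ± 0.25 in Cre minus (log2, SD, n = 3 each), a difference of 0.16 ± 0.15 (SE). The Reln difference rested largely on Cre minus B, the lowest array, and was 0.02 without it, 0.08 without Cre plus B and 0.27 without Cre minus A.

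Ecm1, a secreted matrix protein, was 9.06 ± 0.05 in Cre plus and 9.08 ± 0.09 in Cre minus. Colec11, a collectin of the lectin complement pathway, was 8.56 ± 0.31 in Cre plus and 8.54 ± 0.24 in Cre minus, and its fold change turned sign in 3 of 15 alternatives, being -0.16 without Cre plus B, -0.03 without Cre minus B and -0.08 without Cre minus C. Hand2, a transcription factor of quiescent stellate cells, was 5.94 ± 0.05 in Cre plus and 5.96 ± 0.24 in Cre minus. These 3 genes had log2 fold changes between -0.02 and 0.02. Ngfr, the low-affinity neurotrophin receptor, lay under the filter with values between 2.69 and 2.80.

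Among receptors and pericyte and cytoskeletal genes, Rgs5 and Pdgfra were higher in value in Cre plus and the contractile genes were not. Rgs5 encodes a GTPase-activating protein for G protein alpha subunits that marks pericytes (chr1:169655501-169695813). Its log2 values were 8.92, 8.93 and 8.59 in Cre plus, against 8.36, 8.24 and 8.32 in Cre minus. Each Cre plus array lay above each Cre minus array, Cre plus B included. This gave a log2 fold change of 0.50 ± 0.11 (SE), 1.42-fold, with an unadjusted p = 0.00369 and limma's adjusted p = 0.164, and leaving out single arrays moved it between 0.44 and 0.62.

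The size and direction of the Rgs5 difference depended on the probe set. On the second brightest Rgs5 probe set the values were 8.20, 8.22 and 8.02 in Cre plus, against 6.54, 6.48 and 5.93 in Cre minus. All Cre plus arrays again lay above all Cre minus arrays, by a log2 fold change of 1.83 ± 0.18 (SE) with a 95% interval of 1.40 to 2.26. On the third the difference was 0.41 ± 0.16 and the groups overlapped. On the fourth, which is the dimmest kept, it was -0.54 ± 0.14, with 5.14, 4.95 and 5.32 in Cre plus and 5.45, 5.84 and 5.74 in Cre minus, so the groups separated the other way. In limma's fit of all 15563 kept probe sets, the second brightest reached an adjusted p = 0.1002, short of the threshold, and the brightest, the third and the fourth had 0.205, 0.372 and 0.235. The third (_s_at) and the fourth (_x_at) are of kinds that can bind more than one transcript, and whether the 4 probe sets read the same Rgs5 transcripts was not tested.

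**Figure D3:**
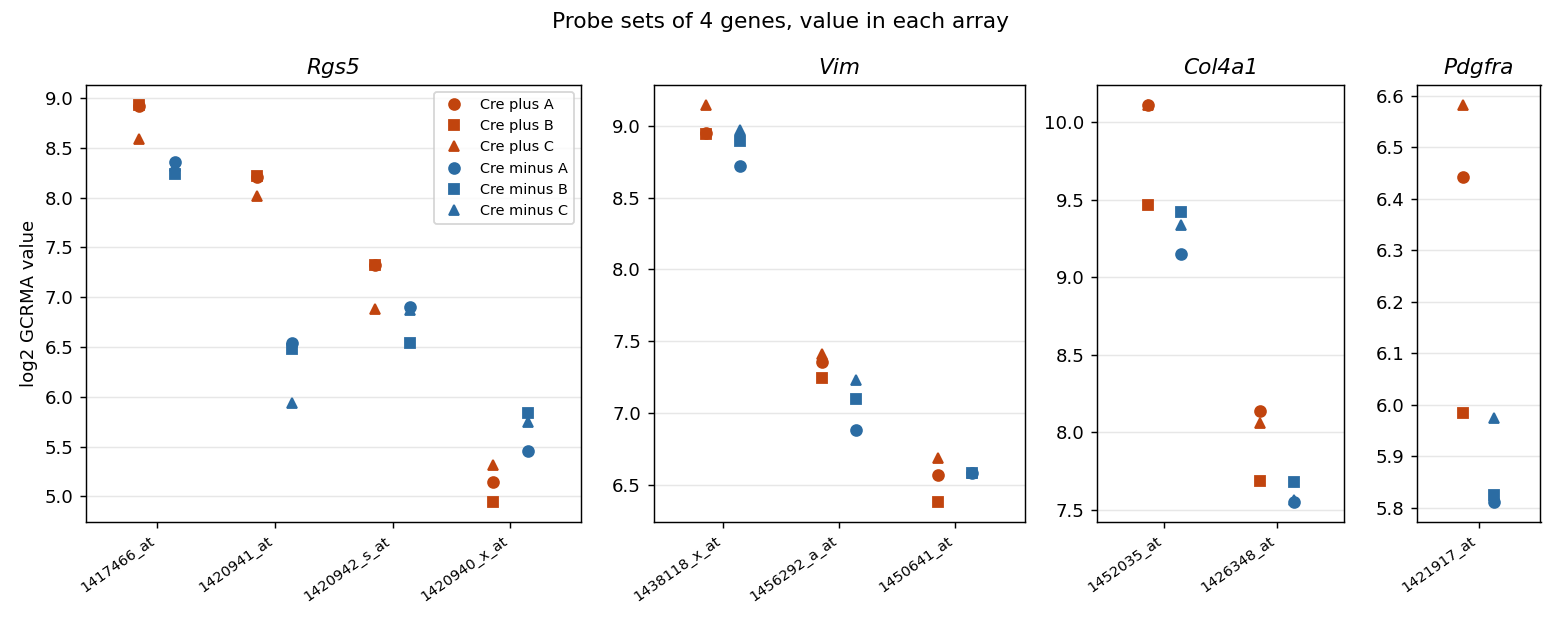
Log2 GCRMA value (vertical axis) of each kept probe set of Rgs5, Vim, Col4a1 and Pdgfra in each array, Cre plus in orange left of Cre minus in blue. Rgs5 probe sets differ by group in opposite directions (1.83 on the second brightest and -0.54 on the dimmest), while both Col4a1 probe sets are higher in Cre plus.

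Pdgfra encodes the PDGF receptor alpha (chr5:75151322-75198206), and its promoter window precedes a start site inside that span. It had log2 values of 6.44, 5.98 and 6.58 in Cre plus, against 5.81, 5.83 and 5.97 in Cre minus. Cre plus A and C lay clearly above all Cre minus arrays, while Cre plus B lay barely above Cre minus C. The log2 fold change was 0.47 ± 0.16 (SE), 1.38-fold, with an unadjusted p = 0.0289 and limma's adjusted p = 0.285. Leaving out Cre plus B gave 0.64, leaving out Cre plus C gave 0.34, and with quantile normalization the groups overlapped. The other Pdgfra probe sets lay under the filter.

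Pdgfrb, the PDGF receptor beta and the main mitogenic receptor of stellate cells, did not follow. Its values were 6.09, 5.43 and 6.13 in Cre plus, against 5.71, 6.41 and 6.08 in Cre minus. The groups overlapped and Cre plus B was lowest. The log2 fold change was -0.18 ± 0.25 (SE), with an interval of -0.81 to 0.44 and limma's adjusted p = 0.774. Without Cre plus B it was 0.04, and without Cre minus B -0.01.

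The intermediate filament genes and contractile genes gave no difference past the test. Des, the desmin of stellate and muscle cells, had 4.28, 4.39 and 4.28 in Cre plus, against 4.34, 4.48 and 4.33 in Cre minus. The groups overlapped near the filter, where fold changes are compressed, with a log2 fold change of -0.07 ± 0.07 (SE). Vim, vimentin, averaged 9.01 ± 0.11 in Cre plus and 8.86 ± 0.13 in Cre minus, a difference of 0.15 ± 0.09 on an _x_at probe set, a kind that can bind more than one transcript. Its other kept probe sets gave 0.26 on the second brightest, where the groups did not overlap, and -0.04 on the third. With _x_at and _s_at probe sets left out, Vim is read from the second brightest and joins the genes at an unadjusted p under 0.05, with limma's adjusted p = 0.333.

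Acta2, the smooth muscle actin that marks activated stellate cells, had 7.43, 7.36 and 7.45 in Cre plus, against 7.37, 7.63 and 7.85 in Cre minus. The Cre plus arrays lay close together, and of the Cre minus arrays only A lay among them. Acta2 had a log2 fold change of -0.20 ± 0.13 (SE), with an interval of -0.51 to 0.10 and limma's adjusted p = 0.5001. Leaving out Cre minus C gave -0.09 and leaving out Cre minus A gave -0.33. The only Acta2 probe set above the filter is an _s_at, a kind that can bind more than one transcript. Tagln, which encodes the actin-binding protein transgelin, averaged 4.97 ± 0.03 in Cre plus and 5.17 ± 0.36 in Cre minus. Its difference of -0.20 rested on Cre minus C, at 5.58, and was 0.01 without that array. Thy1, a surface protein of portal fibroblasts, lay under the filter at 2.30 to 2.31.

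Of the fibrillar collagens, Col1a1 and Col3a1 were measured above the filter and differed more within Cre plus than between the groups. Col1a1, a chain of type I collagen, had 4.26, 3.98 and 4.65 in Cre plus, against 4.28, 4.39 and 4.42 in Cre minus. Cre plus held both the lowest and the highest array. The log2 fold change was -0.07 ± 0.17 (SE), with limma's adjusted p = 0.890, and leaving out Cre plus B gave 0.09, leaving out Cre plus C -0.25.

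Col3a1, the chain of type III collagen, had 7.56, 7.35 and 8.37 in Cre plus, against 7.41, 7.38 and 7.60 in Cre minus. Cre plus C stood above all other arrays, and Cre plus B was the lowest of the 6. The log2 fold change was 0.30 ± 0.27 (SE), with an interval of -0.36 to 0.95 and limma's adjusted p = 0.635. Leaving out Cre plus C gave -0.01, and leaving out Cre plus B gave 0.50.

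Col1a2, the other chain of type I collagen, lay under the filter with 3.83, 3.84 and 3.87 in Cre plus, against 3.77, 3.85 and 3.83 in Cre minus. All 6 arrays were near the bottom of the scale and the groups overlapped. Col5a1, a chain of type V collagen, was also under the filter, at 3.32 ± 0.23 in Cre plus and 3.24 ± 0.13 in Cre minus.

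The listed basement membrane collagen genes, Col4a1 and Col4a2, were both higher in value in Cre plus. Col4a1 and Col4a2 encode the chains of the most common type IV collagen network and lie head to head on chromosome 8. Col4a1 runs on the - strand (chr8:11198423-11312889) and Col4a2 on the + strand (chr8:11312805-11449287), and the RefSeq starts behind their promoter windows are 21 bases apart. Col4a1 had log2 values of 10.11, 9.46 and 10.11 in Cre plus, against 9.15, 9.42 and 9.33 in Cre minus. Each Cre plus array lay above each Cre minus array, but Cre plus B was close to Cre minus B.

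The log2 fold change of Col4a1 was 0.59 ± 0.19 (SE), 1.51-fold, with an interval of 0.12 to 1.07, an unadjusted p = 0.0230 and limma's adjusted p = 0.265. Leaving out Cre plus B gave 0.81, and leaving out Cre plus C gave 0.48. Its second kept probe set gave 0.36 ± 0.13, and there too the groups did not overlap. Col4a2 had 7.60, 7.43 and 7.46 in Cre plus, against 7.27, 7.31 and 7.44 in Cre minus. Only Cre plus B lay below a Cre minus array, Cre minus C, and the difference was 0.16 ± 0.08 with limma's adjusted p = 0.407. Sinusoidal endothelial cells make type IV collagen as well as stellate cells, and which cells gave these values was not tested.

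Col6a1, a chain of the microfibril-forming type VI collagen, lay under the filter at 2.83 ± 0.05 in Cre plus and 2.99 ± 0.12 in Cre minus. Col14a1, a fibril-associated collagen, averaged 6.17 ± 0.14 in Cre plus and 6.14 ± 0.26 in Cre minus. Its difference of 0.03 ± 0.15 (SE) turned sign in 4 of 15 alternatives.

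The proteoglycan and matricellular genes were all above the filter and close between the groups. Bgn, biglycan, had 8.98, 9.03 and 8.93 in Cre plus, against 9.02, 8.93 and 9.03 in Cre minus, and its interval of -0.16 to 0.13 was the narrowest of the 23 genes. Lum, lumican, which spaces collagen fibrils, was 5.27 ± 0.14 in Cre plus and 5.30 ± 0.18 in Cre minus. Dcn, decorin, which binds collagen and TGF-beta, had 10.60, 10.23 and 10.78 in Cre plus, against 10.39, 10.41 and 10.44 in Cre minus. The Cre minus arrays were nearly equal, with Cre plus A and C above them and Cre plus B below. The fold change of Dcn was 0.12 ± 0.14 (SE), and 0.28 when Cre plus B was left out. Sparc, a collagen-binding glycoprotein, was 8.17 ± 0.32 in Cre plus and 8.09 ± 0.13 in Cre minus, with its highest value in Cre plus C at 8.54.

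Elastic fibre genes gave no test. Eln, which encodes tropoelastin, lay at 2.30 to 2.34 in all 6 arrays, and Loxl1, an enzyme that crosslinks elastin, at 2.68 to 2.75. Fbn1, which encodes fibrillin, had no single-gene probe set in the annotation used and was not analysed here. Among the turnover genes, Mmp2, a gelatinase made by stellate cells, was under the filter at 2.22 to 2.27. Timp3, a matrix-bound inhibitor of metalloproteinases, had 4.27, 4.38 and 4.47 in Cre plus, against 4.38, 4.38 and 4.38 in Cre minus. The Cre plus arrays spread around the Cre minus value, and the difference was -0.00 ± 0.07 (SE). Timp2, a soluble inhibitor of the same enzymes, averaged 4.73 ± 0.13 in Cre plus and 4.86 ± 0.09 in Cre minus.

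The 8 genes under the filter had values between 2.22 and 3.87 and differed by at most 0.15 between group means. They were Ngfr, Thy1, Col1a2, Col5a1, Col6a1, Eln, Loxl1 and Mmp2. These values carry little signal over background, so a difference in them was not measurable here. Of the 23 genes above the filter, 22 were over 4 in all 6 arrays and Col1a1 in 5, so none passed it through the level of 1 group.

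The Cre plus livers also differed among themselves in these genes. Cre plus C held the highest of the 6 values for 8 of the 23 genes (Pdgfra, Vim, Col1a1, Col3a1, Col4a1, Dcn, Sparc and Timp3), and over all genes it held the highest value for 16.2%. Cre plus B held the lowest value for 6 (Pdgfrb, Acta2, Tagln, Col1a1, Col3a1 and Dcn), against 13.9% of all genes. Measured from the Cre minus mean, the mean shift of the 23 genes was 0.05, -0.00 and 0.17 in Cre plus. For the fibrillar collagens Col1a1 and Col3a1 alone it was -0.00, -0.25 and 0.60, for the basement membrane genes Col4a1 and Col4a2 0.53, 0.12 and 0.47, and for the 5 storage markers -0.01, 0.14 and -0.01. The SD was larger among Cre plus arrays for 13 of the 23 genes, 56.5%, and for 63.1% of all genes.

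Among other genes of the same pathways, none passed limma's adjusted threshold. At an unadjusted p under 0.05, TGF-beta signalling had 1 higher and 1 lower of 12 tested, PDGF ligands 1 higher of 2, collagen synthesis and crosslinking 1 lower of 10, other matrix genes 0 of 10, and proteases and their inhibitors 1 higher of 6. Over all genes 6.62% were higher and 8.21% lower by this measure, so the counts in the lists of 10 or 12 genes are near that share, and the lists of 2 and 6 are too short to read against it. The median log2 fold changes of these lists were 0.09, 0.47, -0.02, 0.04 and 0.32 in that order.

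Pdgfc, a ligand of PDGF receptor alpha that hepatocytes and other liver cells make, had 8.61, 8.18 and 8.22 in Cre plus, against 7.72, 7.38 and 7.23 in Cre minus. Each Cre plus array lay above each Cre minus array. Pdgfc had a log2 fold change of 0.89 ± 0.17 (SE), with an unadjusted p = 0.00215 and limma's adjusted p = 0.143. Pdgfa, another ligand of that receptor, had 0.05 ± 0.07, and Pdgfb and Pdgfd were under the filter.

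Skil, an inhibitor of SMAD proteins, had a log2 fold change of 0.35 ± 0.08 (SE), and Eng, a TGF-beta co-receptor of endothelial cells, -0.38 ± 0.14. The TGF-beta ligand genes Tgfb1, Tgfb2 and Tgfb3 were under the filter. Plod1, a lysyl hydroxylase that prepares collagen for crosslinking, had 5.93, 6.46 and 6.02 in Cre plus, against 6.96, 6.70 and 6.62 in Cre minus. Its groups did not overlap, and the difference was -0.63 ± 0.17 with limma's adjusted p = 0.206. Serpinh1, the collagen chaperone, had 0.20 ± 0.11.

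Vtn, vitronectin, had 0.12 ± 0.05 and Col18a1, which encodes a basement membrane collagen, -0.20 ± 0.09 (log2 fold change, SE). For both the groups did not overlap, with Vtn higher and Col18a1 lower in Cre plus. The membrane proteases Adam10 and Adam17 had 0.37 ± 0.15 and 0.26 ± 0.11, and the groups did not overlap for Adam10 but did for Adam17. Of the 6 proteases and inhibitors tested, 3 had groups without overlap, all higher: Adam10, Adamts1 (0.37 ± 0.21) and Mmp14 (0.15 ± 0.08). Over all genes this share was 9.21%, and a list of 6 is too short to read against it. Timp1, the inducible metalloproteinase inhibitor, and Nid1, a basement membrane linker protein, were chosen after their values were seen. Timp1 had 6.80, 4.78 and 6.03 in Cre plus, against 4.57, 4.57 and 4.95 in Cre minus. Cre plus A and C were high and Cre plus B lay among the Cre minus arrays, with a log2 fold change of 1.17 ± 0.50 (SE) and limma's adjusted p = 0.352. Leaving out Cre plus B gave 1.72 and leaving out Cre plus A gave 0.71, as differences of group means chosen after seeing the data and not tested. Nid1 had 8.48, 7.75 and 9.41 in Cre plus, against 7.71, 8.12 and 8.11 in Cre minus, with Cre plus C highest as it was for Col3a1. Its log2 fold change of 0.56 ± 0.41 became 0.13 without Cre plus C and 0.96 without Cre plus B.

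Markers of other liver cells were set beside these values. Kupffer cell and macrophage markers were lower in value in Cre plus for 10 of 10 tested, with a median log2 fold change of -0.35. Of all 8554 genes tested, 4575 were lower. At an unadjusted p under 0.05 in limma's test, 6 of these 10 markers were lower, against 8.21% of all genes. The groups did not overlap for 6 of them, all lower, against 11.9% of all genes. C1qa (-0.39 ± 0.07, SE), Vsig4 (-0.39 ± 0.09), Adgre1 (-0.40 ± 0.09) and C1qc (-0.47 ± 0.12) had the smallest p, and none passed adjustment. Endothelial markers were lower for 9 of 10, with a median of -0.24. At an unadjusted p under 0.05, 4 were lower: Ptprb (-0.27 ± 0.08), Oit3 (-0.24 ± 0.07), Tek (-0.31 ± 0.11) and Eng. The groups did not overlap for 5, all lower. The only endothelial marker higher in value was Lyve1, a hyaluronan receptor of sinusoidal and lymphatic endothelium. It had the largest absolute fold change of the 10 endothelial genes tested (0.91 ± 0.56). Its values were 8.07, 6.04 and 7.02 in Cre plus, against 5.69, 6.79 and 5.93 in Cre minus. The groups overlapped, and leaving out Cre plus A gave a fold change (log2) of 0.40, leaving out Cre plus B 1.41. The 7 stellate markers, all of them among the 23 genes, had 4 higher and 3 lower and a median of 0.02, led by Rgs5 and Reln.

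Smooth muscle markers were lower in value for 3 of 3 tested, with Mylk at -0.27 ± 0.07 (SE) and Tpm2 at -0.13 ± 0.11, and the other 5 of the list, Myh11, Cnn1, Actg2, Smtn and Myl9, were under the filter. None of the 9 portal fibroblast and mesothelial markers passed the filter. Of the cholangiocyte markers, Sox9 alone was tested, at 0.38 ± 0.23. Hepatocyte markers were lower for 6 of 8, with Cps1 at -0.50 ± 0.18 and Asgr1 at -0.23 ± 0.10. Higher were Tat at 0.39 ± 0.21 and Hnf4a at 0.11 ± 0.06. The groups did not overlap for Asgr1 and Ttr, both lower, and for Hnf4a, while those of Cps1 overlapped. Over all genes the groups did not overlap for 11.9% lower and 9.21% higher, and 4575 of 8554 were lower in value. Lists of 3 and 8 genes are too short to read against these shares. The leukocyte list had 3 genes tested, with Ptprc at -0.19 ± 0.13 and the neutrophil gene S100a8 at 10.10 in Cre plus A, against 8.19 to 8.54 in the other 5 arrays. The part of these cell types in the values of the stellate and matrix genes was not tested.

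**Figure D4:**
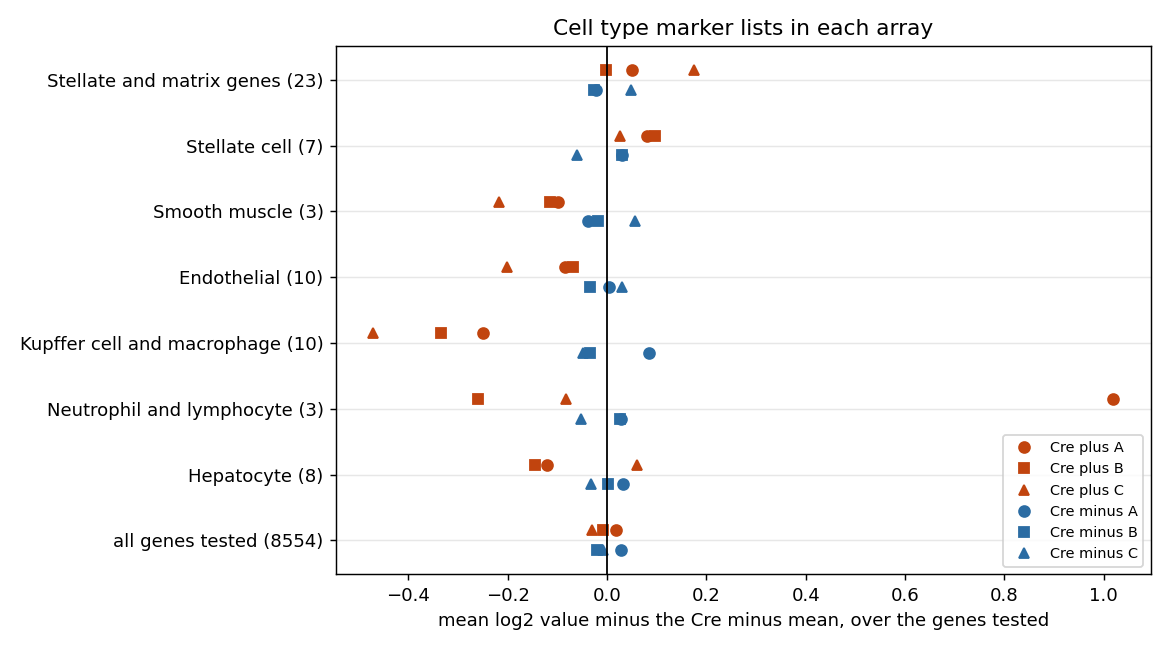
Mean log2 value of each marker list minus its Cre minus mean (horizontal axis) in each array, Cre plus in orange above Cre minus in blue, with the number of genes tested in brackets. Kupffer cell markers lie at -0.47 to -0.25 in Cre plus, stellate markers at 0.03 to 0.10, and the leukocyte list stands at 1.02 in Cre plus A. In Cre minus, Kupffer cell markers lie at -0.05 to 0.08 and stellate markers at -0.06 to 0.03. The stellate list includes Rgs5, with a log2 fold change of 0.50 on its brightest probe set.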

How the data were processed

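The values the authors deposited are on a log2 scale, judged from their range. The submitters' processing notes name GCRMA, and its version is not known here. GCRMA models background from probe sequence, brings the arrays to a common distribution and gives 1 value a probe set; values near the bottom are compressed. Array medians were 2.98 to 3.02. Arrays have no read depth, and their number limits precision.

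Of 45101 probe sets, 64 controls were left out, and 34958 had 1 symbol in the platform annotation (0 symbols changed through the Entrez ID in RefSeq GRCm38.p6). The filter kept 15563. Cre plus was compared with Cre minus by limma 3.58.1 (R 4.3.3; lmFit, eBayes), with no block, two-sided, Benjamini-Hochberg over 8554 genes. An exact permutation test of 3 against 3 cannot go below p = 0.1. The fit was tested on simulated data. Alternatives were other scalings, filters, probe set rules, array weights, a trended robust prior, a block on the letter and leaving out each array.

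The genes and lists were chosen with earlier results of these data known. All members are named. Array values were planned for those at an unadjusted p under 0.05 or without overlap and for Lrat, Des, Acta2, Pdgfra, Pdgfrb, Col1a1, Col1a2, Col3a1, Col4a1 and Timp3. For each other list the 2 to 4 genes with the smallest p are named. Other kept probe sets of a member are given where their sign differs, and those under the filter are not. Some other genes were added after their values were seen.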

Additional observations from a re-analysis of the deposited data

How the results depend on the processing

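None of the 23 genes passed limma's adjusted threshold under any of the 15 alternatives, the replicate block (0 past it, and 3 at an unadjusted p under 0.05) included, nor did any in the test of every kept probe set, an alternative chosen after seeing the data. The replicate letters were not taken as pairs, since same-letter deviations from the group means correlated at -0.15, -0.10 and 0.02 for A, B and C. The lowest adjusted p reached was 0.0674 for both Pdgfra and Col4a1 and 0.0870 for Rgs5. Rgs5, Pdgfra and Col4a1 kept their direction under each alternative that used 1 value a gene and tested them, while the dimmest kept probe set of Rgs5 alone gave -0.54. Their groups were apart with all 6 arrays, so leaving out or weighting arrays could not have turned their sign. The number of genes whose groups did not overlap was 3 and ranged from 3 to 6 when single arrays were left out. It was 6 without Cre plus B, without Cre plus C or without Cre minus C. Groups of fewer arrays overlap less often by construction, and with an array left out the number could not fall below 3. It was 2 with quantile normalization, where the Pdgfra groups overlapped, and 2 with the filter at 6, which left 15 of the genes tested and Pdgfra not among them. It was 4 without _x_at and _s_at probe sets, where Vim was added. The count at an unadjusted p under 0.05 ranged from 1 to 4 over single arrays left out, was 4 without _x_at and _s_at probe sets (Vim added) and 2 with the filter at 6 (Pdgfra not tested). The median log2 fold change lay between -0.01 and 0.08. The fold changes of 13 genes turned sign under at least 1 alternative, none of them at an unadjusted p under 0.05 in the fit reported. For the 8 genes under the filter, low signal over background is the limit.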
